A study of Mus musculus with 4 samples.

Results

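The genes of the smooth muscle contractile apparatus were followed in mRNA-seq of cultured mouse aortic vascular smooth muscle cells (VSMCs) with and without knockdown of *Mettl14*. The genes were taken by symbol from the count table, namely *Acta2*, *Actg2*, *Tagln*, *Cnn1*, *Myh11*, *Myl9*, *Smtn*, *Lmod1*, *Synpo2* and *Des*. They are 10 of 48587 genes in the table, and all 10 passed the filter on low counts that left 18916 genes to test.

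The cells were primary VSMCs from the descending aorta of C57BL/6J mice, grown and passaged in culture before use. Both groups were transduced with a lentivirus that expresses a short hairpin RNA. In shCTR the hairpin has no target in the mouse, and in shMettl14 it targets *Mettl14*, which encodes the RNA-binding partner of the methyltransferase that writes N6-methyladenosine (m6A) on mRNA. Each group has 2 libraries, with the letters A and B, and the labels do not say whether a letter marks a culture, an animal or a day, so the p-values measure only the spread between these libraries, which may be technical.

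Libraries held between 114343653 and 124815868 counts. At that depth a count of 0 allows up to 3 counts, or 0.0240 to 0.0262 CPM (the count relative to the library's total), and the lowest count of any of the 10 genes in any library was 74, so depth did not limit their detection. All CPM values are scaled by the trimmed mean of M values (TMM), which sets the libraries to a common level over most genes. *Mettl14* itself was at 18.0 CPM in shCTR A, 19.9 in shCTR B, 4.60 in shMettl14 A and 4.37 in shMettl14 B. The mean in shMettl14 was thus 23.6% of that in shCTR (19.0 ± 1.34 against 4.48 ± 0.163 CPM, SD, n = 2), in the direction the labels give, with a log2 fold change of −2.08 (SE 0.25) that did not pass edgeR's quasi-likelihood test after Benjamini-Hochberg adjustment over all genes tested (adjusted p = 1.0). With DESeq2 in place of edgeR it passed (adjusted p = 2.0e-09). With 2 libraries against 2, an exact permutation test cannot give a two-sided p below 0.333, so the model across all genes was used throughout.

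Smooth muscle cells contract when myosin heads on thick filaments pull on thin filaments of actin, after the regulatory light chain of myosin has been phosphorylated. Most genes for the smooth muscle forms of these proteins are driven by serum response factor (SRF), which binds a short AT-rich element called the CArG box and acts with cofactors of the myocardin family. VSMCs in the vessel wall hold these mRNAs at high levels, and cultured VSMCs are known to lower them as they take on a proliferative, synthetic state.

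Because the CArG box is the shared control element of the family, promoters of the 10 genes were searched for it. RefSeq promoter windows on GRCm38.p6, from 250 bases before to 50 bases after the annotated start, were found for 7 of the 10. An exact CArG box (CC, 6 bases of A or T, GG, which reads alike on both strands) was present in 1 of the 7, *Myl9*. Of all 27025 genes with a window, 1.81% held one. With 1 G or C allowed among the 6 inner bases, 2 of the 7 held a match, *Acta2* and *Myl9*, against 11.3% of all genes with a window. These sites are printed with 10 bases on each side and the 10 bases of the match in capitals, each read on the gene's strand, and the exact boxes found among 2 lists of related genes described further on are set beside them. Those lists held an exact box in 3 of 8 actin and myosin paralogs and in 2 of 20 other contractile genes with a window.
Acta2, 84 bases before the start, chr19:34255438-34255467, minus strand: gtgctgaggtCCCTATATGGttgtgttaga
Acta2, 34 bases before the start, chr19:34255388-34255417, minus strand: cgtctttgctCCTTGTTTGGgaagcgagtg
Myl9, 161 bases before the start, chr2:156775293-156775322, plus strand: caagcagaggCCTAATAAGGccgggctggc
Myl9, 99 bases before the start, chr2:156775355-156775384, plus strand: cattcttctgCCTTGTAAGGccgggcggcc
Cnn2, 56 bases before the start, chr10:79988534-79988563, plus strand: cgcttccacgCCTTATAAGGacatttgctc
Actg1, 90 bases before the start, chr11:120348566-120348595, minus strand: ggaaagatcgCCATATATGGacatgttctg
Myl6, 50 bases before the start, chr10:128493040-128493069, minus strand: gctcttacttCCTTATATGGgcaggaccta
Actc1, 47 bases before the start, chr2:114052903-114052932, minus strand: gctaaggcgaCCAAATAAGGcaaggtggca
Acta1, 73 bases before the start, chr8:123894829-123894858, minus strand: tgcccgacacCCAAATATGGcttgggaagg
The *Acta2* sites fall inside a longer first exon that GENCODE M21 also annotates. The printed *Actc1* and *Myl6* sites likewise lie within the span that GENCODE M21 gives for the gene. A match says only that these letters are present, and no binding was measured. Sequence outside the windows was not searched, so a gene without a match may hold one elsewhere.

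In these libraries 9 of the 10 contractile genes were lower with shMettl14 and *Synpo2* was higher, but none of the 10 passed an adjusted p of 0.05 with edgeR (adjusted p = 1.0 for each). Nor did any of the 18916 genes tested (0%). The median log2 fold change of the 10 was −0.51, beside 0.0094 over all genes tested, of which 48.8% were lower. Before adjustment 1 of the 10, *Acta2*, had an edgeR p under 0.05, where 1.01% of all genes tested were lower and 0.656% higher at that level (191 and 124 genes). Within each letter, 8 of the 10 were lower in both A and B, as were 27.7% of all genes tested. *Synpo2* was higher in both, as were 30.1% of all genes, and *Lmod1* went in opposite directions. For 4 of the 10 (*Acta2*, *Tagln*, *Myl9* and *Des*), both shMettl14 libraries lay below both shCTR libraries, as for 13.3% of all genes. The median log2 ratio of the 10 was −0.62 in A and −0.20 in B. Each letter holds 1 library per hairpin, so a dependence on the letter cannot be told from variation between libraries. Without shCTR A the median log2 fold change came to −0.14 and 6 of the 10 were lower. In bulk RNA, fewer contractile cells and less contractile mRNA per cell cannot be told apart.

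**Figure D1:**
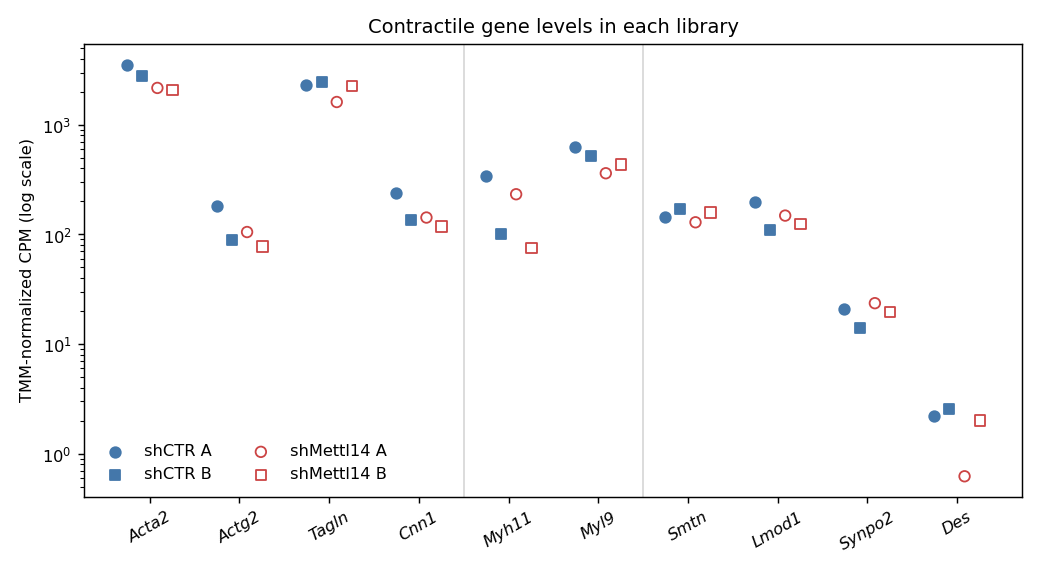
Level of each of the 10 contractile genes in the 4 libraries, in TMM-scaled CPM on a log axis. Each point is 1 library, and a gene's points show where shMettl14 lies against shCTR and how far letters A and B lie apart, widest for *Myh11*.

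The thin filament genes were led by *Acta2*, which encodes α-smooth muscle actin, the main actin of contractile VSMCs (ENSMUSG00000035783, chr19:34241090-34255590, minus strand, GRCm38). *Acta2* stood at 3546 CPM in shCTR A, 2798 in shCTR B, 2171 in shMettl14 A and 2072 in shMettl14 B. Both shMettl14 libraries were below both controls, with means of 3172 ± 529 and 2122 ± 69.6 CPM (SD, n = 2), or 66.9% of control. The log2 fold change was −0.58 (SE 0.21, edgeR adjusted p = 1.0), made up of a log2 ratio of −0.71 in A and −0.43 in B. It stayed negative, between −0.74 and −0.39, whichever library was left out.

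*Actg2* encodes γ-smooth muscle actin, the enteric form (ENSMUSG00000059430, chr6:83512905-83536265, minus strand). It stood at 182 CPM in shCTR A, 88.8 in shCTR B, 105 in shMettl14 A and 77.4 in shMettl14 B, so shMettl14 A was above shCTR B and the groups overlapped. The log2 fold change was −0.57 (SE 0.40), and without shCTR A it came to 0.045.

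The actin genes resemble each other in their coding sequence, which bears on whether reads can be assigned to one of them. The first 60 coding bases of the GENCODE transcripts are printed to show this, with bases that differ from *Acta2* after alignment in capitals.
Acta2: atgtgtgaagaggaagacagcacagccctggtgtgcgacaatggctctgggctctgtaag
Actg2: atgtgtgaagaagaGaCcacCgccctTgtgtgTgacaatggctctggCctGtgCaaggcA
Actb: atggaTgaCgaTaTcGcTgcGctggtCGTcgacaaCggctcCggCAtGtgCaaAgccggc
Over the whole coding sequence *Actg2* was 84.4% and *Actb* 83.2% identical to *Acta2*. Even so, only 7 of 1986 windows of 50 bases along the *Acta2* transcript (0.352%) occur in a transcript of another gene, and no window of *Actg2* does. The share was 14.2% for *Actb* and 56.7% for *Actg1*, partly in pseudogenes, so the counts of the last 2 genes are less certain than those of *Acta2*.

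*Tagln* encodes transgelin (SM22α), an actin-binding protein and an early smooth muscle marker (ENSMUSG00000032085, chr9:45929619-45936058, minus strand). It stood at 2333 CPM in shCTR A, 2449 in shCTR B, 1616 in shMettl14 A and 2253 in shMettl14 B. The groups did not overlap, but shMettl14 B lay close to the controls, and the log2 fold change was −0.31 (SE 0.23), with a ratio of −0.53 in A and −0.12 in B. Exons of genes on the opposite strand, *Pcsk7* among them, cover 67.9% of its exon bases. The libraries were made with a strand-specific kit, but whether the counting used strand is not given in the sources used here. *Pcsk7* itself was at 36.1 to 48.5 CPM and was higher with shMettl14 within both letters.

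*Cnn1* encodes calponin 1, which binds actin and restrains myosin (ENSMUSG00000001349, chr9:22099216-22109630, plus strand). It stood at 237 CPM in shCTR A, 135 in shCTR B, 143 in shMettl14 A and 118 in shMettl14 B. As for *Actg2*, shCTR A was far above the other 3 libraries and the groups overlapped. The log2 fold change of −0.51 (SE 0.33) came to −0.046 without shCTR A.

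The thick filament gene *Myh11* encodes the smooth muscle myosin heavy chain, the most restricted marker of the lineage (ENSMUSG00000018830, chr16:14194535-14291372, minus strand). It stood at 338 CPM in shCTR A, 101 in shCTR B, 233 in shMettl14 A and 74.9 in shMettl14 B. Here the letter set the order, since both A libraries were above both B libraries, by 1.75 on the log2 scale in shCTR and 1.64 in shMettl14. The ratio of shMettl14 to shCTR was −0.54 in A and −0.42 in B, close in size between letters. Against the spread between letters the log2 fold change of −0.51 had an SE of 0.76. It turned positive without shCTR A (0.62) or without shMettl14 B (0.086), fits that leave the letters unequal between the groups. With the letter added to the model as a block it was −0.48 (SE 0.16), though nothing states that a letter marks a shared culture.

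*Myl9* encodes the regulatory light chain whose phosphorylation triggers contraction (ENSMUSG00000067818, chr2:156775420-156781658, plus strand). It stood at 625 CPM in shCTR A, 516 in shCTR B, 362 in shMettl14 A and 435 in shMettl14 B. The groups did not overlap, with means of 570 ± 77.3 and 398 ± 51.5 CPM (SD, n = 2). The log2 fold change was −0.52 (SE 0.22), and it stayed between −0.65 and −0.37 with any 1 library left out.

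The remaining genes organise the filaments. *Smtn* encodes smoothelin, a protein of contractile smooth muscle that associates with actin filaments (ENSMUSG00000020439, chr11:3517523-3540612, minus strand). It stood at 145 CPM in shCTR A, 170 in shCTR B, 129 in shMettl14 A and 158 in shMettl14 B, with a log2 fold change of −0.13 (SE 0.22). The groups overlapped, the difference was smaller than its error, and without shMettl14 A it was 0.012. A further 16.3% of the exon bases of *Smtn* lie opposite genes on the other strand.

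*Lmod1* encodes leiomodin 1, which nucleates actin filaments in smooth muscle (ENSMUSG00000048096, chr1:135324807-135368065, plus strand). It stood at 196 CPM in shCTR A, 109 in shCTR B, 149 in shMettl14 A and 124 in shMettl14 B. The A libraries were both above the B libraries, and shMettl14 was below shCTR in A (−0.40) and above it in B (0.19). The log2 fold change of −0.16 (SE 0.33) was 0.33 without shCTR A.

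*Synpo2* encodes synaptopodin 2 (myopodin), an actin-bundling protein (ENSMUSG00000050315, chr3:123076519-123236149, minus strand). It stood at 21.1 CPM in shCTR A, 14.0 in shCTR B, 23.6 in shMettl14 A and 19.6 in shMettl14 B, the only one of the 10 with a positive log2 fold change. That value was 0.30 (SE 0.29), with overlapping groups.

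*Des* encodes desmin, the muscle intermediate filament protein (ENSMUSG00000026208, chr1:75360329-75368579, plus strand), and was the scarcest of the 10. It stood at 2.20 CPM in shCTR A, 2.55 in shCTR B, 0.623 in shMettl14 A and 2.02 in shMettl14 B, from 250, 276, 74 and 263 counts. shMettl14 A was far below the other 3 libraries. The log2 fold change of −0.85 (SE 0.64) was −0.23 without it.

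Per kilobase of exon, mean levels in shCTR ran from 1444 CPM per kb for *Acta2* and 1203 for *Tagln* through 491 for *Myl9*, 87.1 for *Actg2*, 68.0 for *Cnn1*, 38.6 for *Lmod1*, 35.9 for *Smtn* and 28.9 for *Myh11* to 1.34 for *Synpo2* and 0.633 for *Des*. The levels of neighbours in this order did not overlap between libraries for *Acta2* and *Tagln*, *Tagln* and *Myl9*, *Myl9* and *Actg2*, *Myh11* and *Synpo2*, or *Synpo2* and *Des*. The 4 steps from *Actg2* to *Myh11* lay within the spread of the shCTR libraries. In shMettl14 the levels of *Acta2* and *Tagln* (966 and 973 CPM per kb) overlapped. The libraries thus held the defining markers of smooth muscle, with *Acta2*, *Tagln* and *Myl9* abundant and *Des* low in both groups.

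The spread between letters was as wide as that between hairpins for most of these genes. For 6 of the 10 (*Cnn1*, *Myh11*, *Smtn*, *Lmod1*, *Actg2* and *Synpo2*) the mean difference between letters was larger than that between hairpins, and for *Acta2*, *Tagln*, *Myl9* and *Des* it was smaller. Letter A was the higher one for 7 genes in shCTR and 6 in shMettl14. These counts were not set beside all genes tested, so they cannot be called particular to this family. Over all genes, same-letter libraries also deviated together (correlation 0.578). Summed over the 10 genes, the level was 7625 CPM in shCTR A, 6382 in shCTR B, 4931 in shMettl14 A and 5335 in shMettl14 B. The sums in shMettl14 were both below those in shCTR, by a log2 ratio of −0.63 in A and −0.26 in B, and *Acta2* and *Tagln* make up most of them. The 10 genes held 0.747% and 0.603% of all counts in shCTR A and B and 0.511% and 0.556% in shMettl14 A and B.

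**Figure D2:**
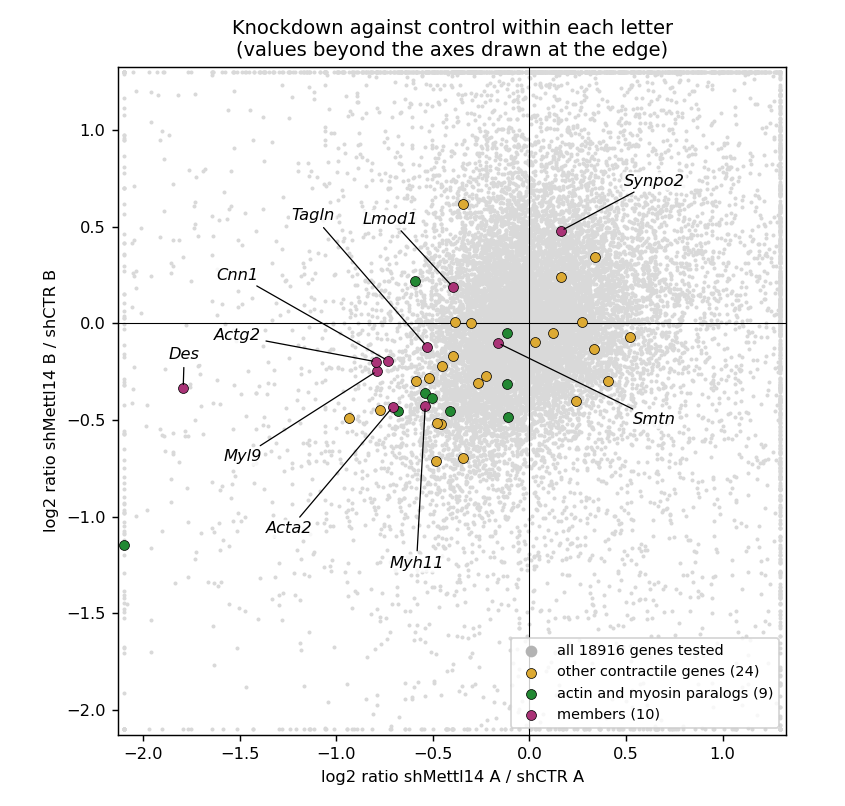
Log2 ratio of shMettl14 to shCTR in letter A (horizontal) against letter B (vertical), for all genes tested (grey), the 10 contractile genes (purple, named), other contractile genes (yellow) and actin and myosin paralogs (green). 8 of the purple points lie to the lower left of the crossing lines, with *Lmod1* and *Synpo2* above the horizontal line, and values beyond the axes are drawn at the edge.

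The nonmuscle and striated muscle relatives of these proteins were lower as well. All 9 paralogs examined had a negative log2 fold change, and the median was −0.43. Of these, 8 were lower within both letters (27.7% of all genes tested), and 7 had both shMettl14 libraries below both controls (13.3% of all genes). Cytoplasmic β-actin, *Actb*, stood at 3795 and 4315 CPM in shCTR A and B and at 2370 and 3153 in shMettl14 A and B (log2 fold change −0.55, SE 0.23). Cytoplasmic γ-actin, *Actg1*, was at 2863 and 2720 CPM in shCTR and 1965 and 2121 in shMettl14 (−0.45, SE 0.18). The 2 cytoplasmic actins therefore lay below control by about as much as *Acta2* did. The nonmuscle light chain *Myl12a* had a log2 fold change of −0.45, and *Myl12b* of −0.43. The nonmuscle heavy chains had smaller values, −0.30 for *Myh9*, −0.21 for *Myh10* and −0.08 for *Myh14*. Of the striated actins, the skeletal form *Acta1* had a value of −0.13. The cardiac form *Actc1* was rare, with 103 and 39 counts in shCTR A and B and 4 and 20 in shMettl14 A and B (−2.74, edgeR adjusted p = 1.0). It was the only one of the 9 with an unadjusted p under 0.05 (1.01% of all genes were lower at that level). With 4 counts in shMettl14 A, *Actc1* passed the filter on low counts with the help of shCTR, so that call is partly set by the filter.

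As a share of all 6 actin mRNAs per kb, *Acta2* made up 38.1% in shCTR A and 36.8% in shMettl14 A, and 32.0% in shCTR B and 31.7% in shMettl14 B. The share thus differed more between letters than between hairpins. The log2 ratio of *Acta2* to *Actb* differed between shMettl14 and shCTR by −0.029 in A and 0.020 in B. That of *Acta2* to *Actg1* was lower with shMettl14 in both letters, by −0.17 in A and −0.075 in B. Total actin mRNA was at 4236 and 3976 CPM per kb in shCTR A and B and at 2687 and 2980 in shMettl14 A and B. *Myh11* was 13.3% and 10.2% of the myosin heavy chain pool in shCTR A and shMettl14 A, against 3.74% and 3.80% in shCTR B and shMettl14 B, so it too followed the letter. *Myl9* was 49.7% and 44.1% of the regulatory light chains in shCTR A and B and 44.6% and 46.7% in shMettl14 A and B, without an order by hairpin.

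**Figure D3:**
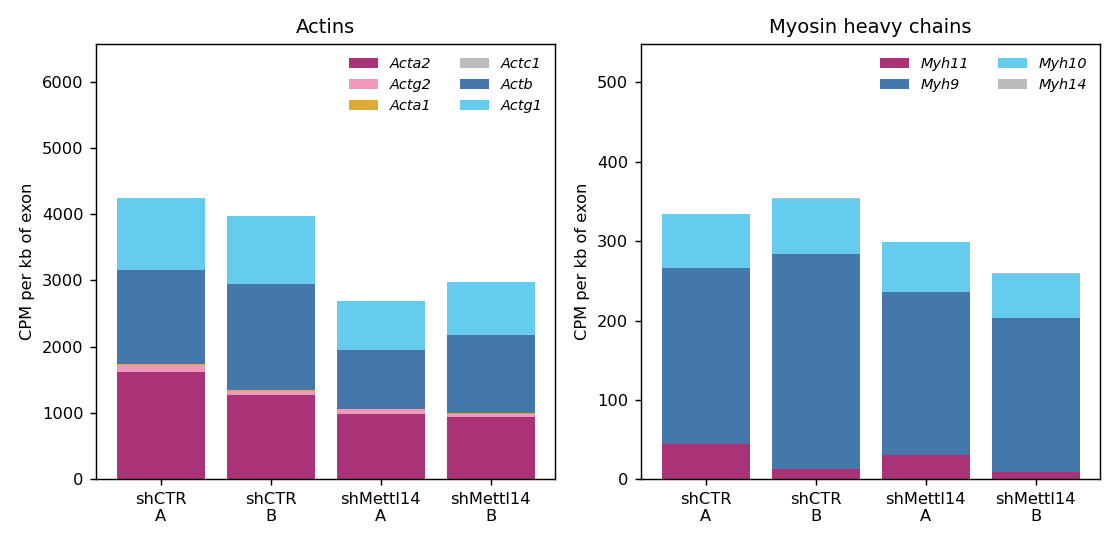
Stacked levels, in CPM per kb of exon, of the actin genes (left) and myosin heavy chain genes (right) in each of the 4 libraries. The actin bars are lower in both shMettl14 libraries, and the *Myh11* segment is larger in both A libraries than in both B libraries.

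Of 24 other genes of the contractile machinery, all tested, 17 were lower and 7 higher, and their log2 fold changes ran from −0.77 to 0.34 around a median of −0.20. Of these, 12 were lower within both letters (27.7% of all genes tested) and 3 higher in both (30.1%), and 8 had both shMettl14 libraries below both controls (13.3%). Before adjustment 2 had an edgeR p under 0.05, both lower (1.01%). *Cnn2*, a calponin found also outside muscle whose promoter box is printed above, stood at 750 and 650 CPM in shCTR A and B and 440 and 477 in shMettl14 A and B (log2 fold change −0.61, SE 0.19, edgeR adjusted p = 1.0). *Tgfb1i1*, the focal adhesion protein Hic-5, stood at 205 and 206 CPM in shCTR and 147 and 126 in shMettl14 (−0.59, SE 0.20, edgeR adjusted p = 1.0). The shMettl14 libraries were below both controls for each of the 2 genes. The largest value was that of *Tpm2*, β-tropomyosin, at 747 and 366 CPM in shCTR A and B and 391 and 261 in shMettl14 A and B (−0.77, SE 0.42), with overlapping groups. *Myl6*, the essential light chain whose promoter also holds a box, stood at 1252 and 584 CPM in shCTR A and B and 987 and 896 in shMettl14 A and B, and its value was 0.037 (SE 0.39). *Mylk*, the kinase of the regulatory light chain, was higher in letter B in both groups (28.2 and 105 CPM in shCTR A and B, 22.2 and 64.9 in shMettl14 A and B), and its value of −0.62 was smaller than its SE of 0.78.

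**Figure D4:**
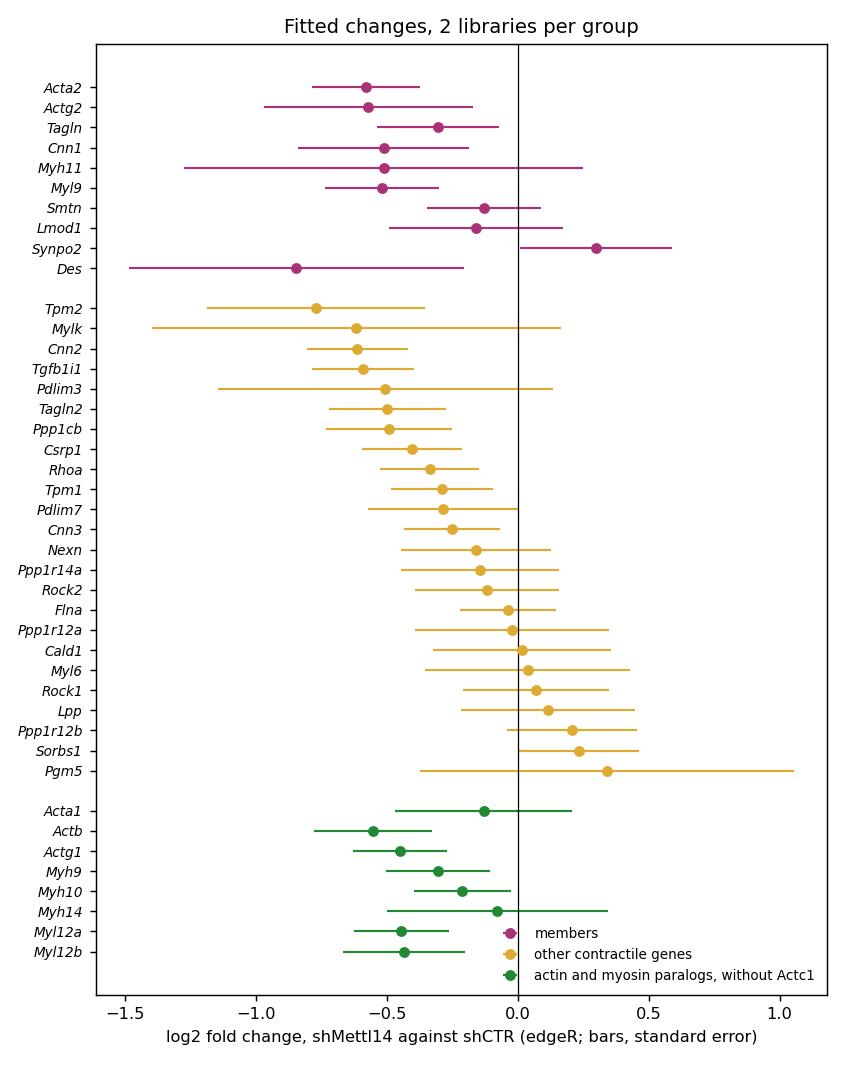
Log2 fold change of shMettl14 against shCTR with its SE from edgeR (2 libraries a group) for the 10 contractile genes (purple), the 24 other contractile genes (yellow) and the actin and myosin paralogs without *Actc1* (green). 9 of the 10 purple points lie below 0 and *Synpo2* above it, and the error bars are widest for *Myh11* and *Des* among the 10.

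For the genes that regulate this family, no difference was larger than its error, as for most genes tested. *Srf*, *Myocd*, *Mrtfa*, *Mrtfb*, *Klf4* and *Elk1* all had a log2 fold change smaller than its SE, as had 13865 of 18916 genes tested. An unadjusted edgeR p under 0.05 was found for 0 of 6 (1.01% of all genes were lower and 0.656% higher at that level). Both shMettl14 libraries lay above both controls for *Elk1* (25.4 and 21.6 CPM in shCTR A and B, 27.3 and 26.5 in shMettl14 A and B), as for 2785 of all genes. *Srf* stood at 105 and 50.6 CPM in shCTR A and B and 95.3 and 60.1 in shMettl14 A and B. *Myocd*, the smooth muscle and cardiac cofactor of SRF, stood at 0.546 and 7.10 CPM in shCTR A and B and 0.918 and 6.60 in shMettl14 A and B. *Srf* was thus higher in letter A and *Myocd* in letter B, in both groups.

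Markers of other cell types also differed between the libraries. The 8 endothelial markers summed to 1919 and 4066 CPM in shCTR A and B and to 1811 and 2522 in shMettl14 A and B, and none of the 8 was at 0. Among them *Pecam1* was at 477 to 820 CPM and *Cdh5* at 508 to 818, so the cultures held endothelial mRNAs in every library. The endothelial sum was highest in shCTR B and lower in both A libraries. It was also lower in shMettl14 than in shCTR, by a log2 ratio of −0.083 in A and −0.69 in B. A negative log2 fold change was found for 7 of the 8 (48.8% of all genes tested). Within letters, 3 were lower in both (27.7% of all genes) and 5 went in opposite directions. Among the 8, *Emcn* differed most between letters (648 and 2099 CPM in shCTR A and B, 484 and 1077 in shMettl14 A and B). *Tie1* was higher in letter A (171 and 136, 158 and 134). Letter A was the higher one for 7 of the 10 contractile genes in shCTR and 6 in shMettl14. The sum of the 10 was nevertheless lower in shMettl14 A (4931 CPM) than in shMettl14 B (5335). The 8 fibroblast markers summed to 413 and 210 CPM in shCTR A and B and to 414 and 175 in shMettl14 A and B. *Col14a1* carried most of that sum in letter A (322 and 37.5 CPM in shCTR A and B, 318 and 44.5 in shMettl14 A and B), while *Dcn* was higher in letter B (68.2 and 160, 72.3 and 120). The 24 striated muscle markers summed to 58.5 and 36.3 CPM in shCTR A and B and 23.6 and 32.3 in shMettl14 A and B. All 17 of them that could be tested were lower, 5 with an unadjusted edgeR p under 0.05 (1.01% of all genes were lower at that level) and none after adjustment. Among the 5, *Myh4* had 625 and 30 counts in shCTR A and B and 0 in both shMettl14 libraries. *Ckm* had 156 and 13 counts against 0 and 4, and *Pvalb* 98 and 11 against 2 and 0. These genes passed the filter through shCTR alone and could only come out lower. The counts of 17 and 5 are thus partly set by the filter. Of the 24, 4 were at 0 in both shMettl14 libraries, and 1 of these 4, *Tnnc2*, was at 0 in every library. The striated list includes *Acta1* and *Actc1*. The 7 leukocyte markers summed to at most 14.7 CPM, with 1 of them at 0 in both shMettl14 libraries. The part of these other cell types in the differences of the contractile genes was not tested.

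The genes outside all these lists whose pattern over the 4 libraries was closest to the median pattern of the 10, by the root mean square difference of centred log2 CPM, were *Calm3* (0.029), *Ndufa8* (0.031), *Tor1a* (0.046), *Mrpl21* (0.051) and *Loxl3* (0.054), among 9046 candidates whose mean reached 10 CPM. *Calm3*, one of the genes for calmodulin, stood at 394 and 290 CPM in shCTR A and B and 267 and 265 in shMettl14 A and B. In that pattern shCTR A was high and the other 3 libraries were near each other. Among the 10 themselves the distance from it ran from 0.12 for *Acta2* to 0.74 for *Myh11*.

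**Figure D5:**
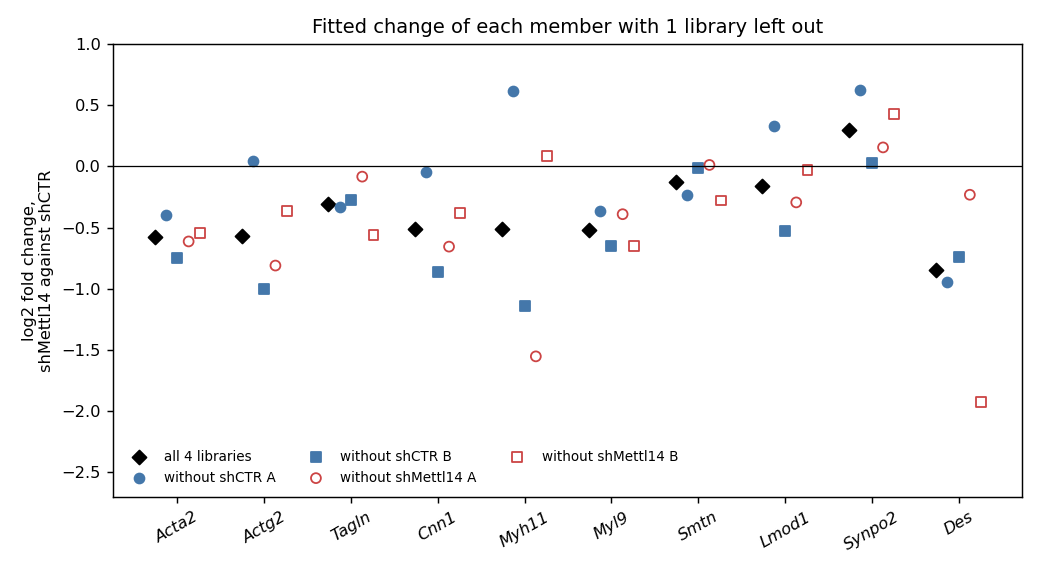
Log2 fold change of each of the 10 genes with all 4 libraries and with each library left out in turn. *Acta2*, *Tagln*, *Cnn1*, *Myl9* and *Des* stay below 0 in each case and *Synpo2* above it, while *Myh11*, *Lmod1*, *Actg2* and *Smtn* cross 0. With a library left out, the letters are unequal between the groups.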

How the data were processed

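Strand-specific poly-A libraries, 4 in all, were sequenced as read pairs. Per the labels and the study's methods, the authors mapped reads with STAR to mm10 (GRCm38, with Ensembl annotation) and counted them per gene with featureCounts. Tool versions, the strand setting of the counting and the treatment of reads with several places are not given in the sources used here. The deposited values are unnormalized counts.

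edgeR 4.0.16 in R 4.3.3 was run on all genes (TMM, filterByExpr, robust quasi-likelihood fit, hairpin as the only term, Benjamini-Hochberg adjustment). SE is the absolute log2 fold change over the root of the F statistic. Within-letter ratios used log2 CPM with a prior count of 2. Lengths are unions of GENCODE M21 exons. Alternatives were DESeq2 1.42.0, other scalings and filters, a replicate block and each library left out.

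The 10 genes and the lists were chosen with earlier results of these data known. Named genes are *Mettl14*, the 10, their paralogs, regulators, genes of the other contractile list with an unadjusted p under 0.05 or among its 4 largest fold changes at 10 CPM or more, and the 5 nearest in pattern. *Myl6*, *Pcsk7*, *Col14a1*, *Dcn*, *Pecam1*, *Cdh5*, *Emcn*, *Tie1*, *Myh4*, *Ckm*, *Pvalb* and *Tnnc2* were named after their values were seen.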

Additional observations from a re-analysis of the deposited data

How the results depend on the processing

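Under DESeq2, RLE or upper-quartile scaling, library totals alone, no filter and at least 10 counts in every library, the sign of each of the 10 contractile genes stayed as reported. Library totals alone moved the median log2 fold change of all genes from 0.0094 to 0.12 and that of the 10 to −0.41, so the gap between them was −0.53 instead of −0.52. It turned the genes with an unadjusted p under 0.05 from 191 lower and 124 higher to 103 lower and 234 higher, and left 0 of the 10 and 0 of the 24 other contractile genes among them. Over all genes, 4 passed the adjusted threshold with DESeq2, *Mettl14* among them (adjusted p = 2.0e-09).

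With the letter as a replicate block, 9 genes passed, again with *Mettl14* (adjusted p = 0.0039), and the lowest adjusted p of the 10 contractile genes was 0.29. Before adjustment 6 of the 10 (*Acta2*, *Cnn1*, *Myh11*, *Myl9*, *Actg2* and *Des*) and 7 of the 24 others had a p under 0.05 with the block, all lower, beside 5.55% of all genes that were lower at that level. Same-letter libraries deviated together (correlation 0.578), but nothing states that a letter marks a shared culture.

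With each library left out in turn, a lone library is assumed to vary like the other group. Genes with an adjusted p under 0.05 numbered 0 to 1, those of the 10 with an unadjusted p under 0.05 numbered 0 to 4, and those of the 24 numbered 0 to 3. Over all genes that count was 1399 of 20278 without shCTR A (0 of the 10), 828 of 20318 without shCTR B (4), 114 of 20218 without shMettl14 A (0) and 78 of 20197 without shMettl14 B (1). The median of the 10 ranged from −0.69 (without shCTR B) to −0.14 (without shCTR A). *Myh11* ranged from −1.55 to 0.62, *Lmod1* from −0.52 to 0.33, *Actg2* from −1.0 to 0.045 and *Smtn* from −0.28 to 0.012. Each of these fits also leaves the letters unequal between the groups, and the part of that in the ranges was not tested. With all libraries and the letter as a block, the values were −0.48 for *Myh11*, −0.10 for *Lmod1*, −0.50 for *Actg2* and −0.13 for *Smtn*.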
